A study of Homo sapiens with 9 samples.

Results

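Interferon-stimulated effector genes were examined in OVCAR3 cells, an established human ovarian cancer cell line, after knockdown of GPX3. The set holds 41 genes, matched by gene symbol among the 58735 genes of the deposited count table, and leaves out RNA sensors and antigen presentation genes. All 41 symbols were found. In the count filter 39 of them had enough reads to be tested among 17023 genes, and IFI16 and XAF1 did not. The study knocked down GPX3, which encodes a secreted peroxide-reducing selenoprotein, to ask what it does in ovarian cancer cells. RNA was sequenced after 72 h in culture from 9 libraries, 3 in each of 3 groups.

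The control cells carried a scramble shRNA (labelled genotype WT), and the other groups carried shRNA#76-GPX3 or shRNA#78-GPX3 (labelled GPX3 knock-down), which are named sh76 and sh78 below. Cells cut a short hairpin RNA into a small guide that lowers matching mRNAs. All groups were grown in the same medium with serum and bovine insulin, and no group was given interferon according to the labels. The labels do not say whether each line was a pool or a clone, or whether the replicates were separate cultures, so p-values measure only the spread between these libraries, which may be technical.

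Interferons are secreted proteins that bind receptors on the cell surface and activate JAK kinases. The kinases activate transcription factors, among them STAT2, which joins IRF9 on a DNA element called the interferon-stimulated response element and switches on a large group of antiviral genes. The products of these genes block virus entry, degrade RNA, restrain translation and tag proteins with ISG15, and many cancer cell lines transcribe some of them without added interferon.

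The DNA near the gene starts was searched for the letters of that element, because it is the sequence that these genes are known to share. RefSeq windows of 300 bases (250 before to 50 after a gene start, GRCh38.p14) were at hand for 34 of the 41 members, in 47 windows, and were missing for IFIT2, IFITM2, OAS2, OASL, MX2, USP18 and IRF7. The core searched is GAAA, then any 2 bases, then GAAA, read on both strands, so that it appears as TTTC, 2 bases and TTTC on the other. It was present in 26 of the 47 member windows (55.3%), against 1255 of all 35116 windows (3.57%). Windows of the same gene can overlap, so that some stretches, such as that of IFI27, count in 2 windows. By gene, 22 of the 34 members had at least 1 match. A match is a description of letters and not of binding. Below is 1 match, with 10 bases on each side and the core in capitals, for each gene that was called in some comparison and had one, and for DTX3L, which lies head to head with PARP9. All are written 5′ to 3′ on the strand of the gene.
IFIT1: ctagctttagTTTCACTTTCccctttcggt
IFITM1: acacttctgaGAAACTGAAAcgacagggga
IFITM3: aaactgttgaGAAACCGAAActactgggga
OAS3: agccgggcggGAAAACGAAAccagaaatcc
MX1: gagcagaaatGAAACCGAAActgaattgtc
ISG15: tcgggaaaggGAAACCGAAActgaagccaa
RSAD2: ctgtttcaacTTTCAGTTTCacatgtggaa
IFI6: ggagagagggGAAAATGAAActgcagagtg
IFI27: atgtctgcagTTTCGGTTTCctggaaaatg
IFI44L: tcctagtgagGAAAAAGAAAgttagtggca
PARP9: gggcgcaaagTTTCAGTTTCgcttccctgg
DTX3L: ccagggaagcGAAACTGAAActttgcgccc

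On GRCh38.p14 the IFIT1 stretch is chr10:89392497-89392526 (plus strand), that of IFITM1 is chr11:314024-314053 (plus), that of IFITM3 is chr11:320876-320905 (minus) and that of OAS3 is chr12:112938452-112938481 (plus). The MX1 stretch is chr21:41420559-41420588 (plus), that of ISG15 is chr1:1013380-1013409 (plus), that of RSAD2 is chr2:6877622-6877651 (plus) and that of IFI6 is chr1:27672288-27672317 (minus). IFI27 has its stretch at chr14:94110618-94110647 (plus). The 30 bases of IFI44L occur 2 times, at chr1:78620274-78620303 and chr1:78620365-78620394 (plus). PARP9 (minus) and DTX3L (plus) share 1 stretch, chr3:122564322-122564351, so that their lines are the opposite strands of the same DNA. UBE2L6 and CMPK2, which were also called, have windows without this core. Among members with a window, 8 of 10 called with sh78 and 14 of 22 tested and not called (63.6%) held the core.

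Libraries held 14652965 to 21327562 counts, so that 1 CPM (a count normalised to library size with TMM factors) stood for 14.5 to 21 counts. GPX3 itself had 173, 109 and 117 CPM in scramble replicates 1 to 3, 56.8, 55.2 and 55.5 CPM with sh76, and 35.3, 28.4 and 28.3 CPM with sh78. It fell with both hairpins, by 1.25 on the log2 scale with sh76 (edgeR adjusted p 0.00264) and by 2.12 with sh78 (edgeR adjusted p 0.000125). All 12 ovarian epithelial markers examined were tested. Of these, 1 rose and 2 fell with sh76 (25% called, against 3.58% of all genes). With sh78 5 fell, namely EPCAM, KRT8, KRT18, KRT19 and FOLR1 (41.7% called, against 4.41% of all genes). The summed level of the 12 markers was 13840 to 14602 CPM with scramble, 13029 to 14088 CPM with sh76 and 11400 to 12110 CPM with sh78. In bulk RNA, fewer cells of a type and less RNA per cell cannot be told apart. Of 12 immune markers 3 were at 0 in every library (CD3D, MS4A1 and CLEC4C), and their summed level was 2.25 to 3.93 CPM with scramble, 3.77 to 4.41 CPM with sh76 and 3.71 to 4.90 CPM with sh78. The 9 fibroblast and endothelial markers summed to 35.7 to 49.95, 37.0 to 63.8 and 44.1 to 57.8 CPM in the same order. The part of these shifts in the results below was not tested.

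Levels are compared between genes as FPKM, which divides by gene length. In scramble cells 7 members had a mean of at least 10 FPKM, 23 had 1 to under 10 FPKM and 11 were under 1 FPKM. IFITM3, a membrane protein that blocks virus entry, stood highest at a mean of 83.3 FPKM. It was followed by UBE2L6, the enzyme that passes ISG15 to its targets, at 41.1 FPKM, by the ubiquitin ligase DTX3L at 32.4 FPKM and by IFITM2 at 28.7 FPKM. At the other end were MX2 at 0.161 FPKM, OAS2 at 0.0381 FPKM and the DNA-binding protein IFI16 at 0.0145 FPKM. This order depends on the gene length used, which was 13047 bases for MX2 and 4834 for RSAD2. Before that division MX2 had a scramble mean of 2.11 CPM, above RSAD2 at 0.984 CPM, while in FPKM RSAD2 stood higher at 0.203. IFI16 had 0 to 12 counts in a library, and XAF1, a pro-apoptotic gene, had 2 counts in sh78 replicate 2 and 0 in the other 8 libraries, a level below what 3 counts would show.

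**Figure D1:**
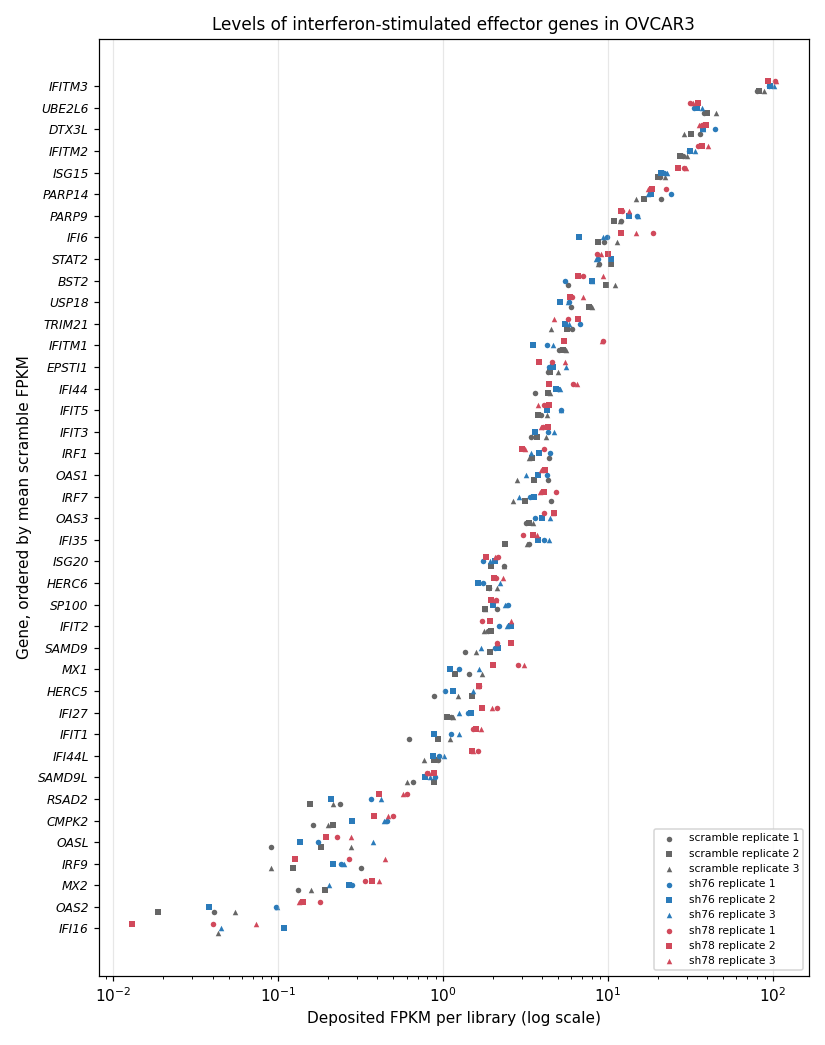
Deposited FPKM of the effector genes in each of the 9 libraries on a log axis, ordered by the scramble mean (grey scramble, blue sh76, red sh78; circle, square and triangle for replicates 1 to 3). XAF1 and libraries at 0 are not drawn. The genes span from about 100 FPKM for IFITM3 (mean 100.7 FPKM with sh78) to under 0.1 FPKM for IFI16.

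With sh78, 12 of the 39 tested members rose and 1 fell, whereas with sh76 1 member rose and none fell (edgeR adjusted p under 0.05). Among all genes tested, 4.41% were called with sh78 (1.85% higher and 2.56% lower) and 3.58% with sh76 (1.43% higher and 2.16% lower). The median log2 fold change of the 39 members was 0.28 with sh78 and 0.20 with sh76, against 0.01 for all genes in each comparison. The fold change was above 0 for 33 members with sh78 and for 29 with sh76. Among the 36 members that passed the filter level in all 3 scramble libraries, which leaves out OAS2, OASL and IRF9, 11 rose and 1 fell with sh78 and 1 rose with sh76, with medians of 0.21 and 0.17. Both comparisons use the same scramble libraries.

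The summed level of the 41 members was 1174, 1099 and 1086 CPM in scramble replicates 1 to 3, 1325, 1204 and 1242 CPM with sh76, and 1301, 1238 and 1269 CPM with sh78. All 6 hairpin libraries were above all 3 scramble libraries, and the hairpin groups overlapped. Abundant genes weigh heavily in this sum, which averaged 1119, 1257 and 1269 CPM with scramble, sh76 and sh78. PARP9, PARP14 and DTX3L alone gave 479, 579 and 539 CPM of it, so it does not show a rise across the set. Counting genes whose 3 libraries lay wholly above scramble gave 16 members with sh78 and 12 with sh76, where 10.2% and 10.8% of all genes did so. Wholly below scramble lay 1 member with sh78 and 3 with sh76, against 11.2% and 11.7% of all genes. At an unadjusted edgeR p under 0.05, 18 members were higher and 1 lower with sh78 (8.31% and 9.22% of all genes), and 11 were higher and 2 lower with sh76 (8.23% and 9.15%). DESeq2 called 3 members higher and 0 lower with sh76, where it called 5.17% of all genes. For sh76 limma on log2(FPKM + 1) called 0 members in either direction, against 2.71% of all genes.

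The replicate numbers were taken to mark shared batches, which the labels do not state (their check is given with the processing). Each comparison was therefore also read within a number. The median over members of the log2 ratio to the same-numbered scramble library was 0.27, 0.21 and 0.41 for sh78 replicates 1 to 3, with 29, 30 and 31 of 39 members higher. For sh76 it was 0.20, 0.14 and 0.21, with 28, 25 and 31 higher. Across all genes 49.8% to 51.8% were higher in these pairs. With the replicate number as a block, edgeR called 19 members higher and 1 lower with sh78, where 19.9% of all genes were called (9.79% higher, 10.1% lower). For sh76 the block gave 12 higher and 2 lower, where 20.4% of all genes were called (9.63% higher, 10.7% lower).

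The count of calls moved with single libraries. The 13 calls for sh78 became 3 without scramble replicate 2 or without sh78 replicate 3, and 5 without sh78 replicate 1. They became 7 without scramble replicate 1 and 8 without scramble replicate 3. Over all genes the 750 calls became 418, 453, 531, 682 and 458 in the same order. On the log2(FPKM + 1) and log2(FPKM + 0.1) scales limma called 7 and 8 members, and 547 and 551 of all genes. MX2, IFI27 and IFI44L were called with sh78 in the main test and under all 15 alternatives. The single sh76 call was lost without scramble replicate 2, sh76 replicate 1 or sh76 replicate 3, and 2 members were called without scramble replicate 1. Over all genes the 610 sh76 calls became 313, 484, 339 and 576 in these fits.

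The filter level was 0.589 CPM, which 36 members passed in all 3 scramble libraries. OAS2 passed it in 0 scramble, 2 sh76 and 3 sh78 libraries, OASL in 2, 2 and 3, and IRF9 in 1, 3 and 2, so that these were kept partly or wholly through the hairpin groups.

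**Figure D2:**
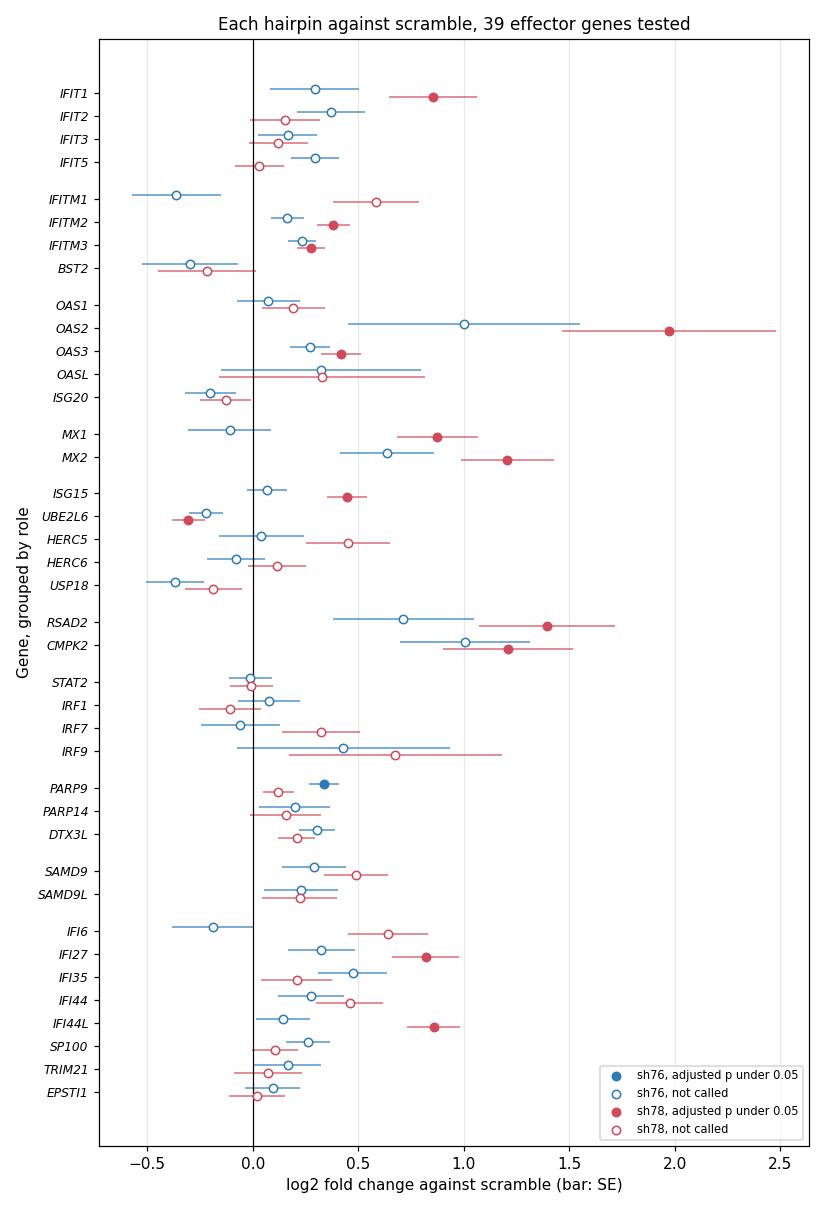
log2 fold change of each of the 39 tested effector genes with sh76 (blue) and sh78 (red) against scramble, grouped by role, with bars of 1 standard error and filled points at an edgeR adjusted p under 0.05. The 12 filled red points to the right of 0 and UBE2L6 to the left are the sh78 calls, and PARP9 is the only filled blue point.

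Among the proteins that act at cell membranes, the IFITM family showed different patterns for its members. IFITM3 had 109, 112 and 119 CPM with scramble, 129, 131 and 137 CPM with sh76, and 141, 127 and 142 CPM with sh78. All 6 hairpin libraries were above scramble, and the hairpins overlapped each other. IFITM3 rose with sh78 by 0.28 ± 0.07 (log2 fold change ± SE, edgeR adjusted p 0.0289), and with sh76 it differed by 0.23 ± 0.07 (edgeR adjusted p 0.0682, 0.000233 with the replicate block, and 0.0479 in DESeq2).

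IFITM2 had 44.4, 42.6 and 46.8 CPM with scramble, 48.1, 49.1 and 52.6 CPM with sh76, and 54.3, 57.5 and 62.5 CPM with sh78. The groups did not overlap and stood in that order. With sh78 IFITM2 rose by 0.38 ± 0.08 on the log2 scale (edgeR adjusted p 0.013), and with sh76 it differed by 0.16 ± 0.08 (edgeR adjusted p 0.305, and 0.0415 with the block). IFITM1 had 5.53, 5.81 and 6.03 CPM with scramble, 4.63, 3.83 and 5.06 CPM with sh76, and 10.1, 5.85 and 10.0 CPM with sh78. The sh76 libraries were the lowest, and sh78 replicate 2 lay among the scramble libraries while sh78 replicates 1 and 3 were well above them. IFITM1 was not called against scramble, at -0.36 ± 0.21 for sh76 (edgeR adjusted p 0.408) and 0.59 ± 0.20 for sh78 (edgeR adjusted p 0.136, and 0.00594 with the block). Without sh78 replicate 2 IFITM1 was called with sh78, at 0.79 (edgeR adjusted p 0.0304).

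The genes lie together on chromosome 11 (GRCh38: IFITM1 at 313506-315272 and IFITM2 at 307631-315272 on the plus strand, IFITM3 at 319669-327537 on the minus strand). IFITM1 and IFITM2 share 351 exonic bases, and 32%, 34.1% and 17.4% of the 50-base stretches of IFITM1, IFITM2 and IFITM3 occur in another gene, so the split of reads among them is uncertain. Some of these stretches also occur in genes outside the 3, so reads there are uncertain for the sum too. How counted reads are divided among the 3 genes does not alter their sum. It was 158, 160 and 171 CPM with scramble, 182, 184 and 195 CPM with sh76, and 205, 190 and 215 CPM with sh78, a mean of 163 ± 7.14 (SD, n = 3), 187 ± 6.82 and 203 ± 12.4 CPM, and both hairpin groups lay wholly above scramble. BST2, which tethers budding viruses to the cell, ran from 6.49 to 12.3 CPM with scramble, 6.23 to 9.01 CPM with sh76 and 7.36 to 10.5 CPM with sh78, and was not called. The IFITM2 call was lost without scramble replicate 2 (log2 fold change 0.35) or sh78 replicate 3 (0.33), and the IFITM3 call without any of scramble replicates 1 and 2, sh76 replicate 2 and sh78 replicates 1 and 3 (0.24 to 0.28).

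MX1 and MX2 are dynamin-like GTPases that trap viral components, and both rose with sh78. MX1 (chromosome 21, 41420304-41459214, plus strand) had 12.5, 10.3 and 14.9 CPM with scramble, 10.9, 9.59 and 14.4 CPM with sh76, and 24.9, 17.3 and 26.8 CPM with sh78. The sh78 libraries were above all others, and the sh76 libraries overlapped scramble, with sh76 replicate 2 the lowest of all. MX1 rose with sh78 by 0.88 ± 0.19 on the log2 scale, which is 1.83-fold (edgeR adjusted p 0.022), while with sh76 it differed by -0.11 ± 0.20 (edgeR adjusted p 0.839). In each group replicate 2 was the lowest and replicate 3 the highest.

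MX2 (chromosome 21, 41361943-41409390, plus strand) had 1.74, 2.52 and 2.07 CPM with scramble, 3.7, 3.54 and 2.67 CPM with sh76, and 4.42, 4.88 and 5.39 CPM with sh78. The 3 groups did not overlap. MX2 rose with sh78 by 1.21 ± 0.22, or 2.31-fold (edgeR adjusted p 0.00584), and with sh76 it differed by 0.64 ± 0.22 (edgeR adjusted p 0.145, and 0.0315 with the block). The MX1 call for sh78 was lost on both FPKM scales in limma (0.57 and 0.82) and without scramble replicate 1 or 2 or sh78 replicate 1 or 3 (0.74 to 0.87).

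Enzymes of RNA decay came next. OAS proteins sense double-stranded RNA and make the short oligoadenylates that activate RNase L. OAS3 (chromosome 12, 112938352-112973249, plus strand) had 26.6, 27.8 and 28.8 CPM with scramble, 30.1, 33.2 and 36.9 CPM with sh76, and 34.1, 38.9 and 38.3 CPM with sh78. All hairpin libraries were above scramble, and the hairpins overlapped. OAS3 rose with sh78 by 0.42 ± 0.10 (edgeR adjusted p 0.0235), and with sh76 it differed by 0.27 ± 0.10 (edgeR adjusted p 0.149, and 0.00474 with the block).

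OAS2 (chromosome 12, 112978395-113011723, plus strand) rested on few reads, with 4, 2 and 6 counts in scramble, 10, 5 and 13 in sh76, and 21, 13 and 13 in sh78. In CPM all sh78 libraries were above all others and 1 sh76 library lay within the scramble range, while in raw counts sh76 replicate 3 equalled sh78 replicates 2 and 3. At 0.257, 0.117 and 0.344 CPM with scramble against 1.13, 0.894 and 0.844 CPM with sh78, OAS2 rose by 1.97 ± 0.51 on the log2 scale (edgeR adjusted p 0.0421). It passed the count filter in no scramble library, so it was tested through the hairpin groups in which it is higher, and its call is no support for the set. OAS1 had 14.0 to 21.5 CPM with scramble and 19.6 to 20.6 CPM with sh78, OASL stayed under 1.34 CPM in every library, and the exonuclease ISG20 had 14.6 to 17.4 CPM with scramble and 13.5 to 15.9 CPM with sh78. None of the latter genes was called. The OAS3 call was lost on both FPKM scales (0.33 and 0.41), without any scramble library and without sh78 replicate 2 or 3 (0.38 to 0.45). The OAS2 call was lost on both FPKM scales (0.15 and 0.87), without sh76 replicate 3 and without any 1 of the scramble or sh78 libraries (1.64 to 2.34).

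The IFIT proteins bind viral RNA and block its translation, and 1 of the 4 was called. IFIT1 (chromosome 10, 89392546-89406486, plus strand) had 2.89, 4.34 and 5.05 CPM with scramble, 5.18, 4.12 and 5.82 CPM with sh76, and 7.11, 7.36 and 7.86 CPM with sh78. The sh78 libraries were above all 6 others, and the sh76 libraries overlapped scramble. IFIT1 rose with sh78 by 0.85 ± 0.21, or 1.81-fold (edgeR adjusted p 0.0319), and with sh76 it differed by 0.29 ± 0.21 (edgeR adjusted p 0.52).

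IFIT2, IFIT3 and IFIT5 differed from scramble by 0.15, 0.12 and 0.03 on the log2 scale with sh78 and by 0.37, 0.16 and 0.30 with sh76, and edgeR called none of them without the block. IFIT2 had 7.29 to 8.04 CPM with scramble and 9.07 to 10.8 CPM with sh76, and IFIT5 had 15.2 to 17.1 CPM against 17.4 to 21.0 CPM, so that both were wholly above scramble with sh76. With the block, edgeR called these genes higher with sh76 (adjusted p 0.0429 and 0.0261). For IFIT1 the sh78 call was lost on both FPKM scales (0.47 and 0.82), and without scramble replicate 1 or 2 or any 1 of the sh78 libraries (0.66 to 0.89).

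ISG15 is a ubiquitin-like protein that is attached to other proteins, by the enzyme UBE2L6 and the ligase HERC5, and is removed by USP18. ISG15 (chromosome 1, 1001138-1014540, plus strand) had 19.7, 18.95 and 20.7 CPM with scramble, 20.8, 20.0 and 21.5 CPM with sh76, and 27.6, 25.3 and 28.0 CPM with sh78. Every sh78 library was above the other 6, which overlapped. ISG15 rose with sh78 by 0.45 ± 0.09 on the log2 scale (edgeR adjusted p 0.0142), and with sh76 it differed by 0.07 ± 0.09 (edgeR adjusted p 0.776).

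UBE2L6 (chromosome 11, 57551656-57568284, minus strand) was the only member that fell in the test without the block. It had 84.8, 88.0 and 99.8 CPM with scramble, 73.5, 77.4 and 82.6 CPM with sh76, and 69.9, 78.1 and 72.8 CPM with sh78. All hairpin libraries were below scramble. UBE2L6 fell by 0.31 ± 0.08 on the log2 scale with sh78 (edgeR adjusted p 0.0436) and differed by -0.22 ± 0.08 with sh76 (edgeR adjusted p 0.149, and 0.00154 with the block).

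HERC5 had 4.24 to 7.22 CPM with scramble, 4.93 to 7.25 CPM with sh76 and 7.86 to 7.97 CPM with sh78, and edgeR called it higher with sh78 with the block (adjusted p 0.0269) and not without it (0.259). HERC6 differed by -0.08 and 0.12 with sh76 and sh78. USP18 had 12.7 to 17.1 CPM with scramble, 11.1 to 12.5 CPM with sh76 and 12.5 to 15.1 CPM with sh78, and edgeR called it lower with sh76 with the block (adjusted p 0.0108) and not without it (0.164). Of its 50-base stretches 23.4% occur in another gene, mostly USP41, so its reads are uncertain. The ISG15 call for sh78 was lost without scramble replicate 2 or sh78 replicate 1 or 3 (0.41 to 0.43). The UBE2L6 call was lost on both FPKM scales (-0.30 on each), and without any 1 of scramble replicates 2 and 3, sh76 replicates 2 and 3 and the sh78 libraries (-0.35 to -0.24).

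RSAD2 encodes viperin, which makes a chain-terminating nucleotide, and its neighbour CMPK2 encodes a nucleotide kinase. Both lie on chromosome 2 (RSAD2 at 6865806-6898239 on the plus strand, CMPK2 at 6840570-6866635 on the minus strand) and their exons share 14 bases. RSAD2 had 1.16, 0.763 and 1.03 CPM with scramble, 1.79, 1.02 and 2.05 CPM with sh76, and 2.96, 1.99 and 2.79 CPM with sh78. The sh78 libraries were above all scramble libraries, while sh76 overlapped both. RSAD2 rose with sh78 by 1.40 ± 0.32, or 2.63-fold (edgeR adjusted p 0.0244), and with sh76 it differed by 0.71 ± 0.33 (edgeR adjusted p 0.287).

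CMPK2 had 0.707, 0.939 and 0.861 CPM with scramble, 1.97, 1.21 and 1.91 CPM with sh76, and 2.15, 1.65 and 2.01 CPM with sh78. All hairpin libraries were above scramble, and the hairpins overlapped. CMPK2 rose with sh78 by 1.21 ± 0.31, or 2.31-fold (edgeR adjusted p 0.0391), and differed by 1.01 ± 0.31 with sh76 (edgeR adjusted p 0.0933, and 0.022 with the block). The RSAD2 call was lost without scramble replicate 2 or 3 or sh78 replicate 1 or 3 (1.24 to 1.43). The CMPK2 call was lost on the log2(FPKM + 1) scale (0.28), without sh76 replicate 3 and without any 1 of the scramble or sh78 libraries (1.11 to 1.31).

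PARP9, PARP14 and DTX3L form a group of ADP-ribosylation and ubiquitin ligation proteins, and 1 of the 3 was called with sh76. PARP9 (chromosome 3, 122527924-122564577, minus strand) had 108, 97.7 and 106 CPM with scramble, 134, 122 and 137 CPM with sh76, and 110, 108 and 121 CPM with sh78. The sh76 libraries were above all 6 others, and the sh78 libraries were above scramble by a small margin. PARP9 rose with sh76 by 0.34 ± 0.07 on the log2 scale (edgeR adjusted p 0.0178), and with sh78 it differed by 0.12 ± 0.07 (edgeR adjusted p 0.427).

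DTX3L (chromosome 3, 122564238-122575203, plus strand), which shares 217 exonic bases with PARP9 on the opposite strand, had 214, 189 and 170 CPM with scramble, 263, 223 and 223 CPM with sh76, and 221, 230 and 211 CPM with sh78. The sh76 libraries were above scramble, and sh78 overlapped it. DTX3L differed by 0.31 ± 0.09 with sh76 (edgeR adjusted p 0.0697, and 6.49e-06 with the block) and by 0.21 ± 0.09 with sh78 (edgeR adjusted p 0.228, and 0.00121 with the block). PARP14 had 155 to 223 CPM with scramble, 185 to 257 CPM with sh76 and 184 to 237 CPM with sh78, which overlapped. Replicate 1 was the highest in each group, and with the block edgeR called PARP14 higher with sh76 (adjusted p 0.000721) and with sh78 (adjusted p 0.00666). In DESeq2, and in edgeR without the low-count filter, 2 of the 3 genes were called higher with sh76, PARP9 among them. There 5.17% and 6.61% of the 17023 genes were called. The PARP9 call was lost on both FPKM scales (0.31 and 0.33), and without scramble replicate 2 or sh76 replicate 1 or 3 (0.29 to 0.32). The libraries carry no strand, so reads in the bases that PARP9 and DTX3L share cannot be assigned to either.

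The remaining effectors include small proteins that are used as markers of interferon activity. IFI44L (chromosome 1, 78619922-78646145, plus strand) had 9.58, 9.09 and 7.87 CPM with scramble, 9.81, 8.96 and 10.5 CPM with sh76, and 16.8, 15.5 and 15.7 CPM with sh78. The 3 sh78 values were the highest, and the other 6 overlapped. IFI44L rose with sh78 by 0.86 ± 0.13, or 1.81-fold (edgeR adjusted p 0.00155), and with sh76 it differed by 0.14 ± 0.13 (edgeR adjusted p 0.629).

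IFI27, a mitochondrial membrane protein, lies on chromosome 14 (94104836-94116698, plus strand). It had 4.69, 4.40 and 4.77 CPM with scramble, 5.92, 6.20 and 5.25 CPM with sh76, and 8.94, 7.22 and 8.25 CPM with sh78. The 3 groups did not overlap. IFI27 rose with sh78 by 0.82 ± 0.16, or 1.76-fold (edgeR adjusted p 0.00829), and with sh76 it differed by 0.32 ± 0.16 (edgeR adjusted p 0.314).

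IFI6, which encodes a membrane protein that limits flavivirus replication, lies on chromosome 1 (27666061-27672218, minus strand). It had 8.23, 7.63 and 9.76 CPM with scramble, 8.57, 5.86 and 8.11 CPM with sh76, and 16.4, 10.5 and 12.9 CPM with sh78. All sh78 values exceeded the rest, and sh76 overlapped scramble. Against scramble IFI6 differed by 0.64 ± 0.19 with sh78 (edgeR adjusted p 0.0754, 0.00021 with the block and 0.0327 in DESeq2, and called without the low-count filter too) and by -0.19 ± 0.19 with sh76 (edgeR adjusted p 0.675).

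Further members passed the edgeR test with the block but not in the fit without it. IFI44 had 7.46 to 9.01 CPM with scramble and 8.94 to 13.3 CPM with sh78 (edgeR adjusted p 0.13, and 0.00856 with the block). SAMD9, a growth-restraining antiviral protein, had 9.45 to 13.3 CPM with scramble and 14.7 to 17.8 CPM with sh78 (edgeR adjusted p 0.0915, and 0.000732 with the block), and without the low-count filter 1 of SAMD9 and SAMD9L was called higher with sh78. With sh76, IFI35 had 7.56 to 8.78 CPM against 4.75 to 6.56 CPM with scramble (edgeR adjusted p 0.14, and 0.0131 with the block), and SP100, a component of nuclear bodies, had 25.8 to 31.5 CPM against 22.7 to 27.2 CPM (edgeR adjusted p 0.21, and 0.013 with the block). SAMD9L, the antibody receptor TRIM21 and EPSTI1 differed from scramble by 0.09 to 0.23 with sh76 and 0.02 to 0.22 with sh78 and were not called by either fit.

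**Figure D3:**
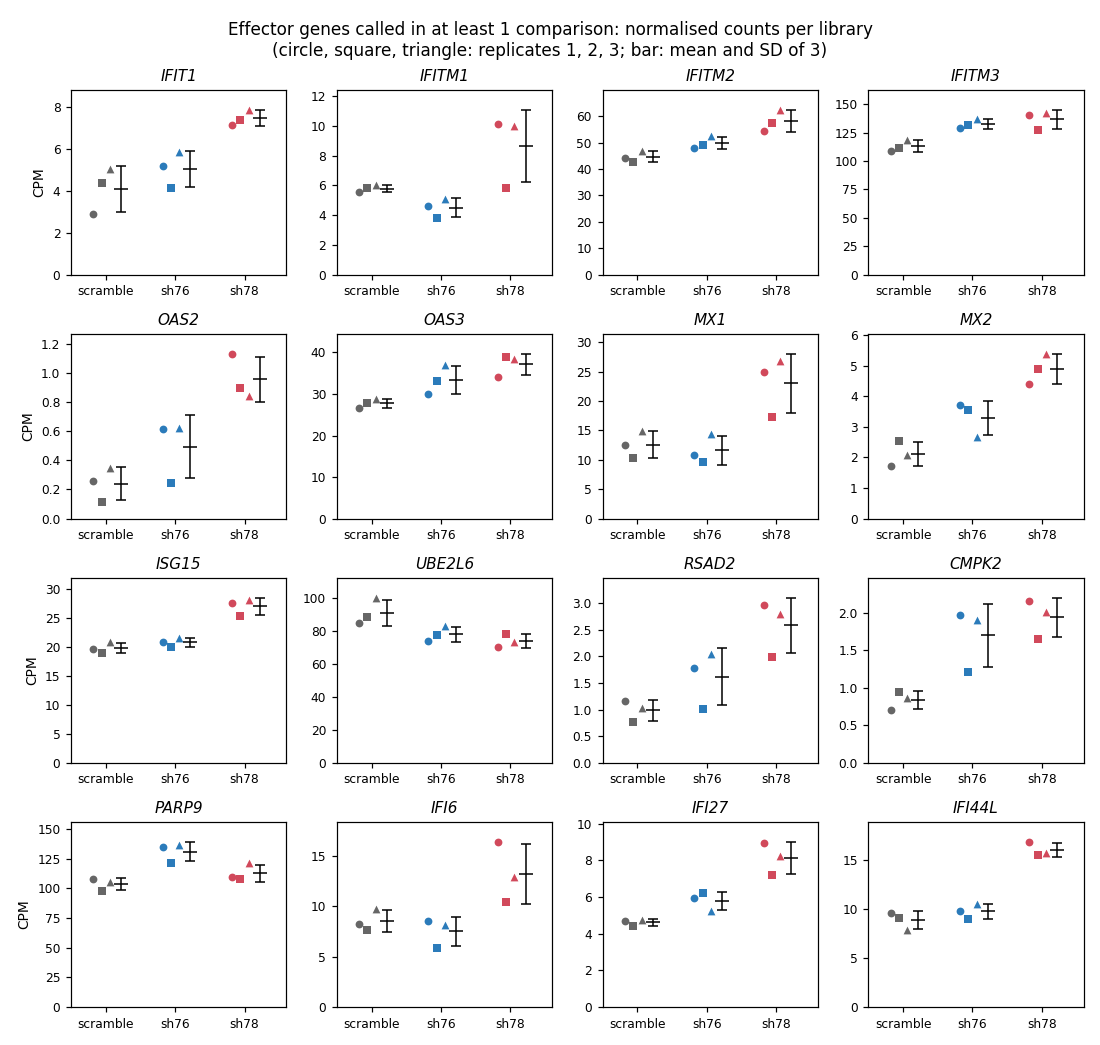
CPM in each library of the 16 effector genes called in at least 1 comparison (grey scramble, blue sh76, red sh78; circle, square and triangle for replicates 1 to 3; black bar for the mean and SD of 3 libraries). In MX1, ISG15, IFI44L and IFI6 the 3 sh78 points lie above the other 6, whereas in PARP9 the 3 sh76 points do, and in UBE2L6 the scramble points are the highest.

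None of the 4 transcription factors of the set was called against scramble by edgeR, with 0 at an unadjusted p under 0.05 in either direction, nor by DESeq2 or limma on either FPKM scale. STAT2 had 52.9 to 64.3 CPM with scramble, 51.8 to 64.4 CPM with sh76 and 53.1 to 61.3 CPM with sh78, and it differed from scramble by -0.01 ± 0.10 with each hairpin. IRF1 differed by 0.08 and -0.11, IRF7, which drives interferon genes, by -0.06 and 0.33, and IRF9, the DNA-binding partner of STAT2, by 0.43 ± 0.51 and 0.67 ± 0.51 with sh76 and sh78. IRF9 had at most 1.69 CPM, and 43.6% of its 50-base stretches are shared with an overlapping gene model, so that its level is uncertain. For IRF1, 22% of the exonic bases overlap other genes on the opposite strand.

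The direct comparison of the hairpins asks whether the members differ between cells that both carry a GPX3 hairpin. With sh78, 5 members were higher than with sh76 and none was lower (edgeR adjusted p under 0.05), where 3.70% of all genes were called (1.97% higher, 1.72% lower). At an unadjusted p under 0.05, 11 members were higher and 2 lower in edgeR (8.11% and 8.15% of all genes). DESeq2 and limma on log2(FPKM + 1) each called 5 higher and 0 lower, where they called 5.06% and 2.64% of all genes. The median of the 39 members was 0.15, against 0.00 for all genes, and 26 members were above 0. Within replicate numbers 1 to 3 the member medians were 0.13, 0.19 and 0.11, with 25, 27 and 26 of 39 higher. The 3 sh78 libraries lay wholly above sh76 for 12 members and wholly below for PARP9 and IFI35, where 10.9% of all genes did so in each direction.

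MX1 differed most among the called genes, by 0.99 ± 0.19 on the log2 scale (1.98-fold, edgeR adjusted p 0.0133). IFITM1 followed with 0.95 ± 0.21 (1.93-fold, edgeR adjusted p 0.0209) and IFI6 with 0.83 ± 0.19 (1.78-fold, edgeR adjusted p 0.0254). IFI44L was higher by 0.71 ± 0.13 (1.64-fold, edgeR adjusted p 0.00568), and ISG15 by 0.38 ± 0.09 (1.30-fold, edgeR adjusted p 0.0383). The sh78 libraries were above the sh76 libraries in all 5 genes.

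With the replicate block edgeR called 11 members higher and 1 lower, where 18.3% of all genes were called (9.69% higher, 8.62% lower). The added genes were IFITM2, IFIT1, MX2, IFI27, HERC5 and IRF7 on the higher side and PARP9 on the lower side, where PARP9 differed by -0.22 (edgeR adjusted p 0.125, and 0.000622 with the block). The 5 calls without the block became 1 without sh76 replicate 2, sh78 replicate 1 or sh78 replicate 3, and 3 without sh76 replicate 3. Over all genes the 629 calls became 273, 344, 351 and 368 in these fits. The ISG15 call was lost in 7 of the 9 fits without 1 library (0.35 to 0.42), all but those without scramble replicate 1 or 3. The MX1 call was lost on the log2(FPKM + 0.1) scale (0.93) and without sh76 replicate 2, sh78 replicate 1 or sh78 replicate 3 (0.86 to 0.93). IFITM1 lost its call without the same 3 libraries (0.82 to 0.84), and IFI6 without these or without sh76 replicate 3 (0.64 to 0.89). IFI44L was the single member called under all 15 alternatives. IFITM3, OAS3, CMPK2 and UBE2L6, which were called with sh78 against scramble, differed between the hairpins by 0.04 ± 0.07, 0.15 ± 0.09, 0.20 ± 0.28 and -0.08 ± 0.08 and were not called by edgeR in either fit.

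**Figure D4:**
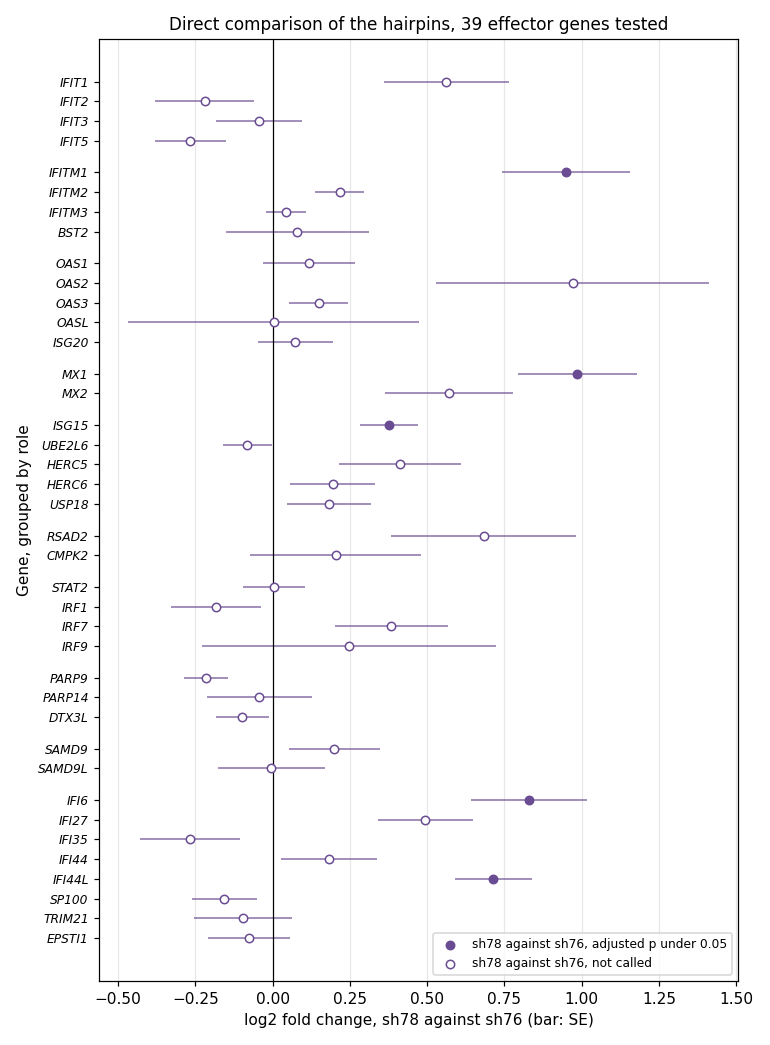
log2 fold change of sh78 against sh76 for the 39 tested effector genes, grouped by role, with bars of 1 standard error and filled points at an edgeR adjusted p under 0.05. The 5 filled points, IFITM1, MX1, ISG15, IFI6 and IFI44L, all lie to the right of 0, and the PARP9, PARP14 and DTX3L group lies to the left.

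The genes upstream of the effectors were read from the same fit. Of 21 interferon ligand genes, 11 had 0 counts in every library and 20 were below the count filter, with at most 3 counts in any library. The 13 IFNA genes together had 0 to 3 counts in a library. IFNE, an epithelial interferon of the female reproductive tract, was the single ligand tested. It had 2.25, 2.17 and 0.287 CPM with scramble, 3.7, 2.91 and 0.811 CPM with sh76, and 3.02, 1.93 and 0.909 CPM with sh78, was lowest in replicate 3 of every group, and was not called with either hairpin (edgeR adjusted p 0.716 and 0.876).

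Among 18 receptor and signalling genes edgeR called 1 higher and 0 lower with sh78. That is 5.56%, near the 4.41% called over all genes. With sh76 edgeR called 0 in either direction, where 3.58% of all genes were called, and DESeq2 and both limma fits called 0. At an unadjusted edgeR p under 0.05, 2 were higher and 2 lower with sh76 (8.23% and 9.15% of all genes). The single call was IFNGR1, a chain of the interferon gamma receptor, which rose with sh78 by 0.28 (edgeR adjusted p 0.0365). It had 43.2 to 44.7 CPM with scramble and 51.4 to 54.8 CPM with sh78, which did not overlap, and the call was lost without the low-count filter (0.28) and in 8 of the 9 fits that left out 1 library (0.26 to 0.31), all but that without sh76 replicate 1. With the block edgeR called 2 higher and 2 lower with sh76 and 2 higher and 4 lower with sh78, where 20.4% and 19.9% of all genes were called. IFNGR1 was among those called higher with sh76 in that fit (edgeR adjusted p 0.0303).

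Of 14 tested genes of RNA and DNA sensing, 2 rose and 1 fell with sh78 (4.41% of all genes were called). With sh76 0 were called (3.58% of all genes), and DESeq2 and both limma fits called 0. At an unadjusted edgeR p under 0.05, 3 were higher and 0 lower with sh76 (8.23% and 9.15% of all genes). DDX58, which encodes the RNA helicase RIG-I, rose with sh78 by 0.59 ± 0.12 (edgeR adjusted p 0.0106), and IFIH1, which encodes the helicase MDA5, rose by 0.60 ± 0.14 (edgeR adjusted p 0.0219). ADAR, the enzyme that edits double-stranded RNA, had 422, 386 and 406 CPM with scramble, 461, 449 and 478 CPM with sh76, and 293, 314 and 303 CPM with sh78. The 3 groups did not overlap, with sh76 the highest and sh78 the lowest. ADAR fell by 0.42 ± 0.06 on the log2 scale with sh78 (edgeR adjusted p 0.000991), differed by 0.19 ± 0.06 with sh76 (edgeR adjusted p 0.0813, and 0.000609 with the block), and was lower with sh78 than with sh76 by -0.61 ± 0.06 (edgeR adjusted p 0.000122). The DDX58 call was lost without scramble replicate 3 (0.47), and the IFIH1 call without any 1 scramble library or sh78 replicate 1 or 2 (0.54 to 0.63). With sh76 DDX58 was called higher under 1 of the 15 alternatives, the replicate block (edgeR adjusted p 0.00406). With the block edgeR called 3 of the list higher and 0 lower with sh76, and 4 higher and 1 lower with sh78, where 20.4% and 19.9% of all genes were called, so that the sh76 count is near the share over all genes.

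Of 14 tested antigen presentation genes, 1 was called with each hairpin, where 3.58% and 4.41% of all genes were called with sh76 and sh78. It was TAPBP, the chaperone tapasin, which had 93.5 to 98.6 CPM with scramble, 150 to 166 CPM with sh76 and 123 to 138 CPM with sh78. The groups did not overlap, and TAPBP rose with sh76 by 0.72 ± 0.07 (edgeR adjusted p 5.99e-05) and with sh78 by 0.46 ± 0.07 (edgeR adjusted p 0.00127). With the block edgeR called 3 genes of the list higher with sh76, and 4 higher and 2 lower with sh78, against 20.4% and 19.9% of all genes, so that the sh76 count is again near the share over all genes.

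A list of 44 other interferon-stimulated genes had 38 tested. With sh76 4 of them rose and 1 fell (13.2% called, against 3.58% of all genes). With sh78 2 rose and 1 fell (7.89% called, against 4.41% of all genes). LGALS3BP, a secreted glycoprotein, had 551 to 582 CPM with scramble, 771 to 847 CPM with sh76 and 773 to 859 CPM with sh78, and rose by 0.51 ± 0.06 (edgeR adjusted p 0.00047) and 0.50 ± 0.06 (edgeR adjusted p 0.000359). ZC3HAV1, an antiviral zinc finger protein, rose by 0.34 with sh76 (edgeR adjusted p 0.0242) and 0.39 with sh78 (edgeR adjusted p 0.00916). PLSCR1, a phospholipid scramblase, fell by 0.41 with sh76 (edgeR adjusted p 0.0304) and by 0.61 with sh78 (edgeR adjusted p 0.00288), and LY6E rose by 0.49 with sh76 (edgeR adjusted p 0.0129). With sh78 LY6E was called higher under 1 of the 15 alternatives (0.09 to 0.28 over these). The sh76 call was lost for ZC3HAV1 on both FPKM scales (0.29 and 0.33) and without scramble replicate 2 or 3 or any 1 sh76 library (0.27 to 0.36), for PLSCR1 on both FPKM scales (-0.40 and -0.42) and without scramble replicate 1 or 2 or sh76 replicate 2 or 3 (-0.40 to -0.34), and for LY6E without scramble replicate 2 or sh76 replicate 2 or 3 (0.46 to 0.49). With the block edgeR called 14 of the list higher and 3 lower with sh76, and 9 higher and 4 lower with sh78, where 20.4% and 19.9% of all genes were called. Within this list the median log2 fold change was 0.14 with sh76 and 0.11 with sh78, against 0.01 for all genes in each comparison.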

How the data were processed

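Poly-A RNA was sequenced from 9 OVCAR3 libraries, and grouping followed the sample titles. The authors deposited counts per gene and FPKM values. Per the submitters' processing notes these involved HISAT2 2.0.5, featureCounts 1.5.0-p3 and hg38, and per the labels' protocols the libraries were non-directional. Names, starts and ends of all 58735 genes matched GENCODE release 29 (GRCh38). The deposited FPKM values equalled counts divided by gene length and by 1 size per library.

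The count test was edgeR 4.0.16 (R 4.3.3), with filterByExpr (minimum count 10, minimum total 15), TMM factors and robust quasi-likelihood tests with 1 coefficient per group over all 9 libraries, which leaves 6 residual degrees of freedom. Benjamini-Hochberg adjustment ran over 17023 genes, with calls made under an adjusted p of 0.05. The standard error is the log2 fold change divided by the square root of F. The biological coefficient of variation was 10.4%. The procedure was tested on simulated counts drawn independently for each library. They held no shared deviation of same-numbered libraries, which is described next, so that test does not cover it.

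Same-numbered libraries deviated together from their group means (r 0.14 to 0.39 in 9 pairs, against -0.31 to 0.06 in 18 pairs of unlike number). They were taken to mark shared batches, which the labels do not state. A fit with the number as a block (4 residual degrees of freedom) is given for each member whose call it changes. For the other lists it is given as counts and for some of the named genes. Replicates of a group differed by more than sampling noise (chi-square per degree of freedom 5.20 to 11.7).

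Alternatives were DESeq2 1.42.0, RLE factors, no low-count filter, limma 3.58.1 on log2(FPKM + 1) and log2(FPKM + 0.1), and leaving out each library. Members and lists were chosen with earlier results of these data known. Every member is accounted for, and those called in any comparison are given in full. From the other interferon lists, the named genes are those called with the 4 smallest p with sh78 or the 2 smallest with sh76. Matched RefSeq promoter windows come from GRCh38.p14. Confidence in low genes is limited by counting error.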

Additional observations from a re-analysis of the deposited data

Results flagged for a closer look

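The response of 5 effector genes differed between the hairpins when sh78 was tested directly against sh76 (edgeR, adjusted over all genes tested). On the log2 scale MX1 differed by 0.985 (edgeR adjusted p 0.0133), IFITM1 by 0.948 (edgeR adjusted p 0.0209), IFI6 by 0.829 (edgeR adjusted p 0.0254), IFI44L by 0.714 (edgeR adjusted p 0.00568) and ISG15 by 0.378 (edgeR adjusted p 0.0383). In each of them all 3 sh78 libraries were above all 3 sh76 libraries. Over all genes tested 3.70% were called. The call was lost in 7 of the 9 fits without 1 library for ISG15, 4 for IFI6, 3 for MX1, 3 for IFITM1 and 0 for IFI44L. MX1 also lost it on the log2(FPKM + 0.1) scale, and the split of reads between IFITM1 and its neighbours is uncertain. The targeted gene GPX3 differed too, by -0.86 ± 0.16 (edgeR adjusted p 0.0194). That call was lost without any 1 sh76 library or sh78 replicate 2 or 3 (-0.80 without sh78 replicate 3, where the edgeR adjusted p was highest at 0.0843), and the part of the GPX3 difference in these genes was not tested.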

How the results depend on the processing

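Counts of called members were 1, 13 and 5 for sh76, sh78 and sh78 against sh76. The replicate block, which pairs same-numbered libraries, gave 14, 20 and 12, and over all genes 3467, 3388 and 3117 in place of 610, 750 and 629. Without the low-count filter 2 members were called with sh76, and 1149, 1212 and 1125 genes in all. DESeq2 called 3 members with sh76, and 880 genes in all. On log2(FPKM + 1) limma called 0 members with sh76 and 7 with sh78, and on log2(FPKM + 0.1) 0 and 8. Over all genes the former scale gave 462 and 547 calls, and the latter 422 and 551. Leaving out each library in turn gave 0 to 2, 3 to 13 and 1 to 5 members, and 237 to 655, 418 to 810 and 273 to 780 genes. The lowest totals came without sh76 replicate 2 for both sh76 comparisons and without scramble replicate 2 for sh78. The cause of these changes was not tested.

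Of 1170 single-gene values under alternatives, 1013 kept direction and side of the threshold, 127 lost the call, 25 gained one and 5 changed sign. The sign changes were MX1 with sh76 (-0.301 to 0.0267 over the fits that leave out 1 library, with 0.0267 without scramble replicate 3, 0.0137 without sh76 replicate 2) and LGALS3BP for sh78 against sh76 (-0.0528 to 0.0279, with 0.0279 without sh76 replicate 3, 0.014 and 0.0224 without sh78 replicates 1 and 2), none of them called. Genes of about 1 CPM, such as OAS2, OASL, IRF9, RSAD2 and CMPK2, carry the largest counting error among the tested members.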
